A study of Mus musculus with 4 samples.

Results

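Insulin-like growth factor (IGF) signalling was examined through 10 genes measured in 2 mouse fibroblast lines: the ligand Igf1, its receptor Igf1r, the binding proteins Igfbp2, Igfbp3, Igfbp4, Igfbp5, Igfbp6 and Igfbp7, and the receptor substrates Irs1 and Irs2. The members were the probe sets of an Affymetrix mouse expression array whose only annotated gene symbol is 1 of these names. That rule gave 26 of the 45037 non-control probe sets, for 10 of 18193 named genes, and all 26 are described. Unstimulated L929 cells, a clonal line from C3H mouse connective tissue, were compared with unstimulated NIH3T3 cells, a line from Swiss mouse embryos, with 2 arrays of total RNA per line. The submitters describe L929 as necrosis-sensitive and NIH3T3 as apoptosis-sensitive. With 1 line for each, that sensitivity and the line cannot be told apart.

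IGF1 and IGF2 are secreted growth factors that bind the receptor tyrosine kinase IGF1R, which then phosphorylates the docking proteins IRS1 and IRS2 and thereby turns on the PI3K-AKT and MAPK routes. In extracellular fluid most IGF is held by high-affinity binding proteins, which extend its life and keep it from the receptor until proteases cleave them. Fibroblasts are known both to secrete such binding proteins and to need an active IGF1R for anchorage-independent growth in many transformation assays.

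Signals are from MAS5, in arbitrary units, after scaling of the arrays to the same trimmed mean. A probe set was tested where L929 or NIH3T3 exceeded 17.6 on both of its arrays, the 40th percentile of the scaled signals and the filter level below. Log2 differences are L929 minus NIH3T3 on a log2(signal + 8.16) scale, which understates the change of dim genes, and a call needed both a limma adjusted p under 0.05 and more than a 1.5-fold difference. Across tested probe sets, which are not independent replicates, the correlation was 0.982 for the L929 pair and 0.981 for the NIH3T3 pair, while pairs of different lines gave 0.835 to 0.843. NIH3T3 replicate 2 stood apart as deposited, with a trimmed mean of 210.3 against 134 to 142 on the other 3 arrays. Scaling removed that offset. Without scaling the median log2 difference of all tested probe sets was -0.28, against -0.01 with it, and calls in the higher direction made up 28.5% of all calls, against 47.2% with scaling. No label states whether the replicates were grown apart, and the spread behind the p-values may therefore be technical only. Of 10 fibroblast markers all were tested, 2 were called higher and 3 lower on the probe set with the highest mean, 1 of 2 probe sets of Col1a1, not called there, was called higher (0.94), and Col1a2 and Vim gave signals of at least 5128 on all 4 arrays, whereas Thy1 gave 18.4 and 30.6 in L929 and 2234 and 2294 in NIH3T3. Of 4 endothelial markers 2, Pecam1 among them, lay below the filter level on all 4 arrays, as did 2 of 5 macrophage and leukocyte markers, Ptprc among them. Others did not: Csf1r, Cd68 and Adgre1 exceeded it on all 4 arrays, and Kdr on both L929 arrays and 1 NIH3T3 array.

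L929 differed from NIH3T3 most clearly in a binding protein: Igfbp4 was called higher in L929 on all 6 of its probe sets. Igf1 was called higher on 1 of 4 probe sets, close to the filter level in NIH3T3. Igf1r was called lower on 3 of 5 probe sets and Igfbp7 on 1 of 3. Of the 26 member probe sets 19 were tested, and 7 were called higher and 4 lower, together 57.9%, beside 31.6% of all 27438 tested probe sets. Of the 11 calls 6 belong to Igfbp4, whose probe sets share their transcript. Counted by gene, with the tested probe set of highest mean standing for the gene, 2 of 9 members were higher and 2 lower, beside 35.2% called among 12676 genes. That is near the background, so the count by gene says nothing particular about these members. The median log2 difference was 0.27 over the 9 members and 0.01 over all genes. The lower calls depended on the scaling and the arrays: without scaling 0 member probe sets were called lower by limma, where 3 had an unadjusted p under 0.05, and without NIH3T3 replicate 2 only 2 were called lower.

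**Figure D1:**
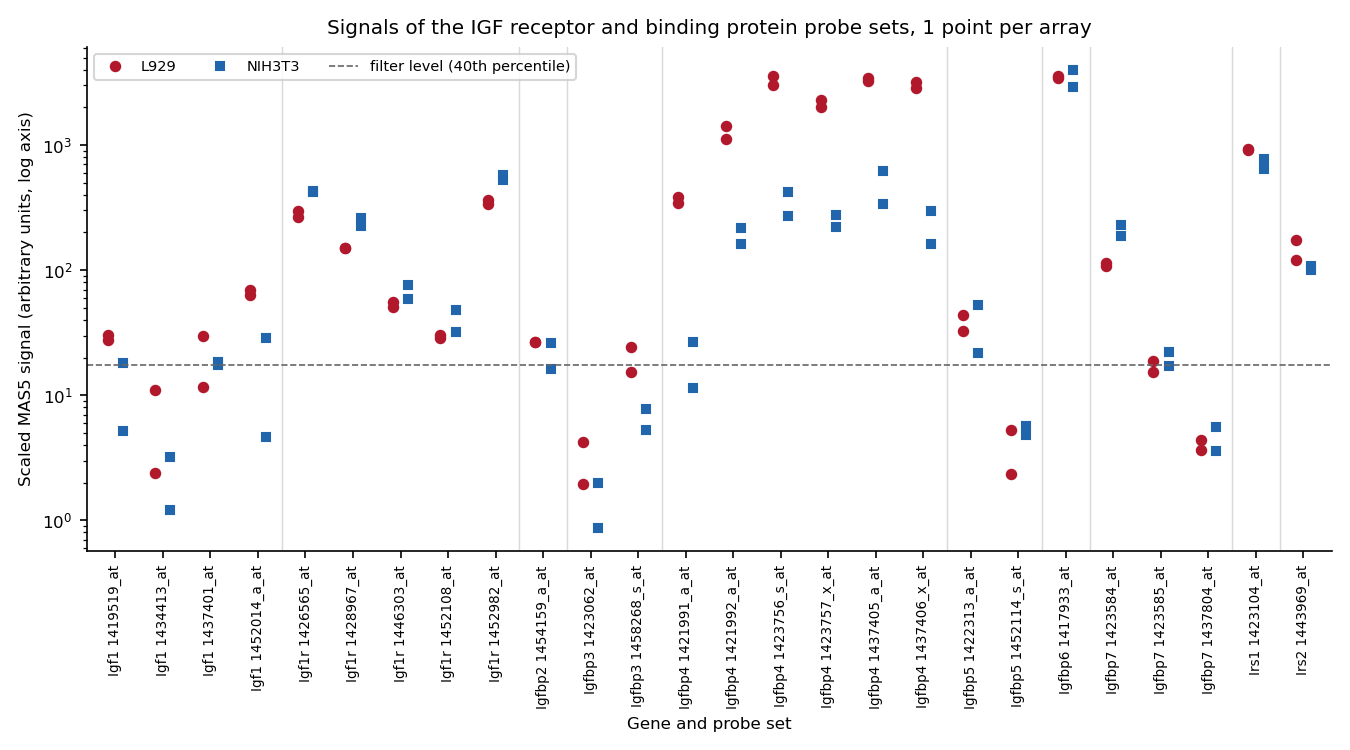
Scaled MAS5 signal (arbitrary units, log axis) of the 26 member probe sets, with 1 point per array, L929 as circles left of NIH3T3 as squares, and the filter level of 17.6 as a dashed line. The 6 Igfbp4 probe sets show a gap between the lines on every array, the 5 Igf1r probe sets lie lower in L929, and those of Igfbp3 lie near or under the dashed line.

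The RefSeq promoter windows of Igfbp4 and Igf1r are shown because these are the members measured by the most probe sets, all of which lay on the same side in every array. Each window runs from 250 bases before to 50 bases from the annotated start in GRCm38.p6 and is read 5′ to 3′ on the gene's strand. The Igfbp4 window is chr11:99040994-99041293 on the plus strand and the Igf1r window is chr7:67952007-67952306 on the plus strand. Capitals mark matches to the TATA box TATAAA, the GC box GGGCGG or the CCAAT box CCAAT, searched on both strands.
Igfbp4: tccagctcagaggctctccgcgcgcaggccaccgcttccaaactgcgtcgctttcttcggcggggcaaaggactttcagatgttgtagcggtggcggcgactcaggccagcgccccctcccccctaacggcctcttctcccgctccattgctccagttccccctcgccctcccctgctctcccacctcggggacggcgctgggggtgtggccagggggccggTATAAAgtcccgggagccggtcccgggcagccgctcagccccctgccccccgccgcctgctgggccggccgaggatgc
Igf1r: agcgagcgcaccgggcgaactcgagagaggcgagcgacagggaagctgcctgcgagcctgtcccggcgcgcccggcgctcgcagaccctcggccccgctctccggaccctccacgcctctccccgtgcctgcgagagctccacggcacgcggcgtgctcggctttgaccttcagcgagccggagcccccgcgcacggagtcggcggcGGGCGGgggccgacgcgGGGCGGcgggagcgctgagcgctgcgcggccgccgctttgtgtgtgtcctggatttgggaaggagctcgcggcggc
The Igfbp4 window held 1 TATAAA, at position -28 from the start, and 0 GC or CCAAT boxes. The Igf1r window held 2 GC boxes, at positions -43 and -26, and 0 TATAAA. No matches overlap each other in these windows. Of all 32851 windows in the table, 13.6% held TATAAA, 35.7% GGGCGG and 37.4% CCAAT. Across the 11 windows of the 10 members, TATAAA occurred in 2 (Igfbp4 and Igfbp6), GGGCGG in 5 and CCAAT in 3. CpG dinucleotides numbered 27 in the Igfbp4 window and 48 in that of Igf1r, beside a median of 7 over all windows, and 10 of the 11 member windows lay above that median. The window of Igf1, with 6 CpG, lay below it. These matches describe letters in a window and were not related to the signals.

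Igf1 encodes the ligand that gives the family its name and was dim in both lines. Probe set 1452014_a_at gave 63.5 and 69.0 in L929, against 4.66 and 28.6 in NIH3T3. Both L929 arrays lay above both NIH3T3 arrays, but the NIH3T3 arrays differed by 6.15-fold and only 1 of them lay above the filter level. The log2 difference was 1.78 ± 0.46 (SE), a 3.42-fold higher signal in L929 (limma adjusted p = 0.0153). It was 5.84-fold without NIH3T3 replicate 2 and 2.02-fold without NIH3T3 replicate 1, and the call was lost without L929 replicate 2 (limma adjusted p = 0.0532), with no filter (0.0504) and with no mean-variance trend (0.055). Another Igf1 probe set, 1419519_at, gave 27.8 and 30.3 in L929, against 18.2 and 5.16 in NIH3T3, a log2 difference of 0.99 that was not called (limma adjusted p = 0.0676). It pointed the same way, 1 of its NIH3T3 arrays being too dim for the filter, and would be called without NIH3T3 replicate 1 (difference 1.48, limma adjusted p = 0.03). The remaining Igf1 probe sets, 1434413_at and 1437401_at, were too dim to be tested and their arrays overlapped between the lines.

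Igf1r, the receptor tyrosine kinase for both IGF ligands, was lower in L929 by about 1.5-fold. Probe set 1452982_at gave 367 and 337 in L929, against 521 and 580.4 in NIH3T3, a log2 difference of -0.63 ± 0.11 (SE; limma adjusted p = 0.0025). Probe set 1426565_at gave 265 and 296 in L929, against 418 and 432 in NIH3T3, a log2 difference of -0.59 ± 0.11 (limma adjusted p = 0.00372). Probe set 1428967_at gave 149 and 149.7 in L929, against 261 and 227 in NIH3T3, a log2 difference of -0.67 ± 0.14 (limma adjusted p = 0.00476). In each of these every L929 array lay below every NIH3T3 array.

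The other two Igf1r probe sets were dimmer and less certain. Probe set 1446303_at gave 50.7 and 55.2 in L929, against 58.6 and 76.6 in NIH3T3, and its 95% interval ran from -0.84 to 0.24. Probe set 1452108_at gave 28.6 and 30.1 in L929, against 47.7 and 31.8 in NIH3T3, with an interval from -0.99 to 0.32. Neither was called, and both intervals include the size seen on the brighter probe sets. All 5 probe sets thus lay below NIH3T3 on every array, where 35.8% of all tested probe sets do so. They come from 3 source sequences, and 4 of them share a source with another, so they are not independent. The folds of the called probe sets, 1.51 to 1.59, lie just past the threshold, and the calls were lost under several alternatives. Without scaling 0 of the 3 were called (log2 differences -0.87 to -0.95, limma adjusted p 0.131 to 0.174), with 2 at an unadjusted p under 0.05. Those unscaled differences were past the fold threshold, and only the adjusted p was not met. Without NIH3T3 replicate 2 only 1428967_at was called. The call of 1426565_at was lost without L929 replicate 1 (difference -0.51), with quantile normalization (-0.56) and with an offset of 32 (-0.55), that of 1452982_at without L929 replicate 2 (-0.58) and that of 1428967_at without NIH3T3 replicate 1 (-0.57), in each case with a fold under the threshold.

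Igfbp4 encodes a binding protein known mainly as an inhibitor of IGF action, and its signal was higher in L929 by 6.51-fold to 14.2-fold over its 6 probe sets. Probe set 1437405_a_at gave 3227 and 3433 in L929, against 338 and 625 in NIH3T3, a log2 difference of 2.83 ± 0.24 (SE; limma adjusted p = 4.1e-05). Probe set 1423756_s_at gave 3036 and 3569 in L929, against 272 and 424 in NIH3T3, a difference of 3.25 ± 0.19 (limma adjusted p = 5.66e-06). Probe set 1437406_x_at gave 2852 and 3170.3 in L929, against 161 and 299 in NIH3T3, a difference of 3.72 ± 0.24 (limma adjusted p = 7.98e-06). In all of these the lower L929 array was at least 5.16 times the higher NIH3T3 array.

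The remaining Igfbp4 probe sets showed the same order of arrays. Probe set 1423757_x_at gave 2024 and 2301 in L929, against 221 and 275 in NIH3T3, a difference of 3.09 ± 0.13 (limma adjusted p = 9.22e-07). Probe set 1421992_a_at gave 1124 and 1427 in L929, against 163 and 216 in NIH3T3, the smallest difference of the 6 at 2.70 ± 0.16 (limma adjusted p = 5.87e-06). Probe set 1421991_a_at gave 383 and 343 in L929, against 26.8 and 11.4 in NIH3T3, the largest at 3.83 ± 0.28 (limma adjusted p = 1.64e-05). Only 1 of its 2 NIH3T3 arrays lay above the filter level, and with an offset of 32 its fold was 7.81 in place of 14.2. The suffix _a marks probes for several transcripts of a gene, and _s and _x mark probes that may also bind other transcripts, so differences among the 6 folds need not be differences in the mRNA. The 6 probe sets come from 3 source sequences, each used for 2 of them.

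The NIH3T3 replicates differed from each other in Igfbp4. On the 5 probe sets above the filter level on all arrays, NIH3T3 replicate 2 was 1.24 to 1.85 times replicate 1, which placed them between the 83.7th and 98.6th percentiles of that ratio among 21418 probe sets. On 1421991_a_at replicate 2 was 0.427 times replicate 1. The gap between the lines was larger than this spread in every case. All 6 calls were kept under the 13 alternatives run, with log2 differences between 2.40 and 4.29.

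**Figure D2:**
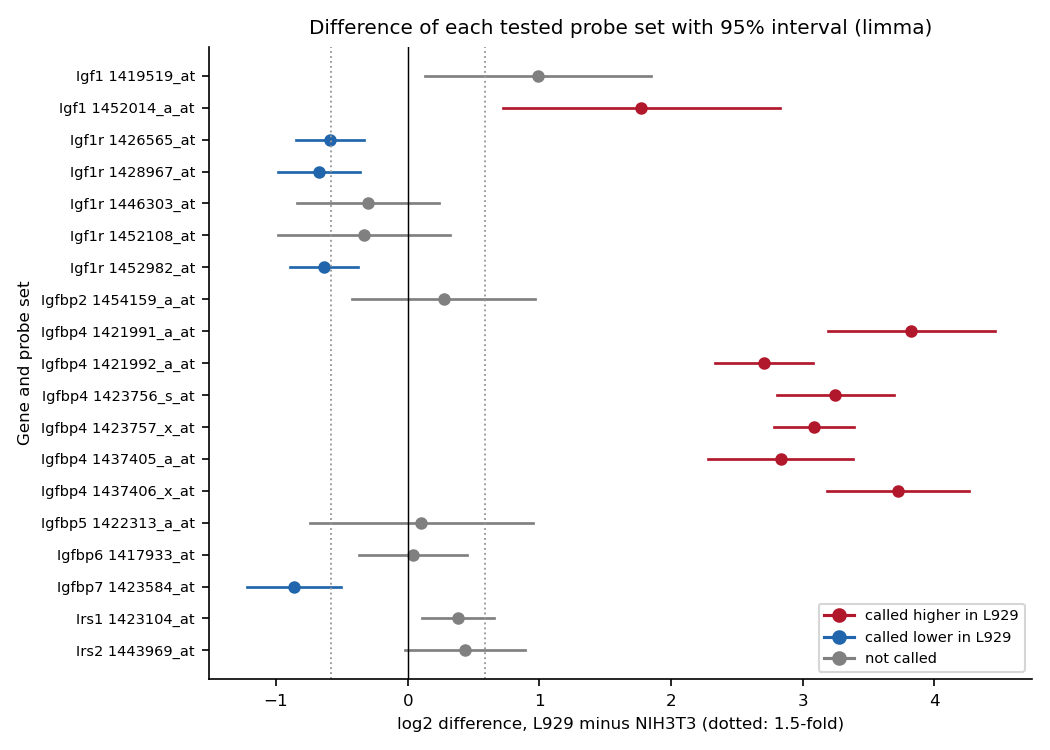
Log2 difference, L929 minus NIH3T3, of the 19 tested member probe sets (points) with the 95% interval from limma (lines) and the 1.5-fold threshold (dotted). The Igfbp4 intervals run from 2.28 upward, those of the called Igf1r probe sets straddle the threshold, and those of Igfbp2, Igfbp5 and Igfbp6 include 0.

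Igfbp7 encodes a secreted protein related to the binding proteins, with low affinity for IGF and reported binding to IGF1R. Its probe set 1423584_at gave 113 and 108 in L929, against 230.5 and 188 in NIH3T3, a log2 difference of -0.86 ± 0.16 (SE), 1.82-fold lower in L929 (limma adjusted p = 0.00278). The arrays of the lines did not overlap. The call was lost without scaling (difference -1.14, limma adjusted p = 0.0637). The other Igfbp7 probe sets, 1423585_at and 1437804_at, were not tested. They gave 15.2 and 18.9 in L929 with 17.1 and 22.2 in NIH3T3, and 3.66 and 4.37 in L929 with 3.59 and 5.56 in NIH3T3. These dim probe sets overlapped between the lines and carry no call.

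Igfbp6, a binding protein that prefers IGF2, gave a strong signal in both lines with no measured difference. Its probe set 1417933_at gave 3429 and 3593 in L929, against 3988 and 2915 in NIH3T3. The L929 arrays lay between the NIH3T3 arrays. The log2 difference was 0.04, with a 95% interval from -0.37 to 0.45 (limma adjusted p = 0.876), and its sign turned without scaling and without NIH3T3 replicate 2.

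The remaining binding proteins were dim. Igfbp5, which binds matrix and bone as well as IGF, gave 32.4 and 43.6 in L929, against 21.7 and 52.8 in NIH3T3, on probe set 1422313_a_at. Its NIH3T3 arrays differed by 2.43-fold and enclosed the L929 arrays, and the log2 difference of 0.10 had an interval from -0.75 to 0.95 (limma adjusted p = 0.851). The other Igfbp5 probe set, 1452114_s_at, was at most 5.64 on any array.

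Igfbp2, a neighbour of Igfbp5 on chromosome 1 and a binding protein of fetal tissues, gave 26.8 and 26.5 in L929, against 16.1 and 26.1 in NIH3T3, on 1454159_a_at. The lines nearly met, and the log2 difference of 0.27 had an interval from -0.42 to 0.97 (limma adjusted p = 0.516). Igfbp3, the main carrier of IGF in serum, was not tested. Probe set 1423062_at gave 1.97 and 4.21 in L929, against 1.98 and 0.872 in NIH3T3, and 1458268_s_at gave 15.5 and 24.5 in L929, against 5.30 and 7.70 in NIH3T3. Only 1 of the 8 Igfbp3 values, on an L929 array, lay above the filter level, so no fold is given.

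Irs1 and Irs2, the docking proteins that carry the receptor's signal to PI3K, differed by less than the fold threshold. Irs1 on 1423104_at gave 923 and 906 in L929, against 769 and 640.3 in NIH3T3. Both L929 arrays were higher, and the log2 difference of 0.38 (95% interval 0.11 to 0.65) had a limma adjusted p of 0.0352. Irs2 on 1443969_at gave 119.8 and 173 in L929, against 100.5 and 108 in NIH3T3. Its L929 arrays were also higher but lay apart from each other, and the difference of 0.44 had an interval from -0.02 to 0.89 (limma adjusted p = 0.118). Irs2 would be called without L929 replicate 1 (difference 0.69, limma adjusted p = 0.0321).

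Of the 19 tested member probe sets, 17 had arrays that did not overlap between the lines, 11 with L929 above (34.1% of all tested probe sets do so) and 6 with L929 below (35.8%). Together that is 89.5%, beside 69.9% of all tested probe sets, and 11 of the 17 belong to Igfbp4 and Igf1r.

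The pathway around the members was described from a list of 89 genes, 82 of them with a probe set annotated to that gene alone and 75 tested. Values below are for the probe set that stands for each gene, with p adjusted over all 12676 genes. In the whole list 8 were called higher and 20 lower, with a median log2 difference of -0.29, beside 17.4% called higher and 17.8% called lower among all genes and a median of 0.01. The choice of probe set matters: 8 of the genes not called had another probe set that was, 3 of them higher (Igf2r, Sos1 and Ptpn2) and 5 lower (Stc2, Grb2, Pik3ca, Pik3cd and Igf2bp1), named after their values were seen. Leaving the members out, 6 of 66 tested genes were higher and 18 lower. Without scaling, 5 of the list were called higher and 15 lower.

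The ligands were called in opposite directions, but Igf1 on only 1 of its 4 probe sets, with a call lost under some alternatives. Igf2, the second IGF ligand and an imprinted gene, gave 33.8 and 33.5 in L929, against 830.0 and 1061 in NIH3T3, a log2 difference of -4.50 ± 0.15 (SE), 22.6-fold lower in L929 (limma adjusted p = 2.08e-07). Its other tested probe set differed by -1.37, also called lower, and the mean of both was 7.64-fold lower. With an offset of 32 the fold was 14.8. Ins2, the insulin gene with a probe set of its own, was too dim to be tested. Igf1, the ligand called higher in L929, gave 63.5 and 69.0 there and lay around the filter level in NIH3T3 (4.66 and 28.6). Igf2, the ligand called lower, was dim in L929 and well above that level in NIH3T3.

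Among the receptors only Igf1r was called on the probe set standing for the gene. Igf2r, the scavenger receptor that carries IGF2 to lysosomes, gave 557 and 539 in L929, against 408 and 342 in NIH3T3. Its log2 difference of 0.54 ± 0.12 (SE) had a limma adjusted p of 0.00611 but a fold of 1.45, under the threshold. Its other probe set was called higher, with a difference of 0.64, and the gene would be called without NIH3T3 replicate 1 (0.67) and with the mean of both probe sets (0.59). Insr, the insulin receptor, gave 103 and 78.0 in L929, against 98.3 and 112 in NIH3T3, with an interval from -0.67 to 0.26. Insrr, an orphan relative of the insulin receptor, differed by 0.29 with an interval from -0.47 to 1.06, and 1 of its NIH3T3 arrays was too dim for the filter. The further binding protein genes Igfbp1, Igfbpl1 and Igfals were too dim to be tested.

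Of 11 tested proteases of the binding proteins and their inhibitors, 1 was higher and 6 were lower in L929, beside 17.4% and 17.8% of all genes. Htra1, a serine protease that can cleave IGF binding proteins, gave 1316 and 1276 in L929, against 308 and 308 in NIH3T3, 4.12-fold higher (limma adjusted p = 1.37e-06). Mmp2, gelatinase A, gave 73.8 and 89.0 in L929, against 3256 and 2920.2 in NIH3T3, 34.6-fold lower (limma adjusted p = 3.81e-08). Adam12, a metalloprotease that can cleave IGFBP3 and IGFBP5, gave 20.6 and 7.78 in L929, against 277 and 307 in NIH3T3, 14.0-fold lower, 1 of the L929 arrays being under the filter level (limma adjusted p = 1.75e-05). Adamts1, a metalloprotease of the ADAMTS family, was 8.08-fold lower (28.5 and 28.8 in L929, against 283 and 295 in NIH3T3). With an offset of 32 Adam12 was 7.07-fold and Adamts1 5.29-fold lower, and with an offset of 1 Adam12 was 21.2-fold lower.

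Genes of the list for a protease of IGFBP4 and for described inhibitors of that protease are named here after their values were seen. Pappa encodes the metalloprotease PAPP-A, whose best known substrate is IGFBP4 bound to IGF. It gave 2.61 and 6.64 in L929, both below the filter level, against 32.02 and 40.8 in NIH3T3. Pappa was 3.51-fold lower in the fit (limma adjusted p = 0.00187), or 2.06-fold with L929 set to the filter level. Its fitted fold was 1.87 with an offset of 32 and 7.07 with an offset of 1. Stc1 encodes stanniocalcin 1, described as an inhibitor of PAPP-A for the human proteins. It gave 23.6 and 24.5 in L929, against 217 and 239.8 in NIH3T3, 7.33-fold lower (limma adjusted p = 8.63e-06), or 4.64-fold with an offset of 32. Stc2, the related stanniocalcin 2, also described as a PAPP-A inhibitor for the human proteins, was not called on the probe set standing for it (difference -0.44, limma adjusted p = 0.11), while 2 of its 3 probe sets were called lower, with differences down to -2.83.

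**Figure D3:**
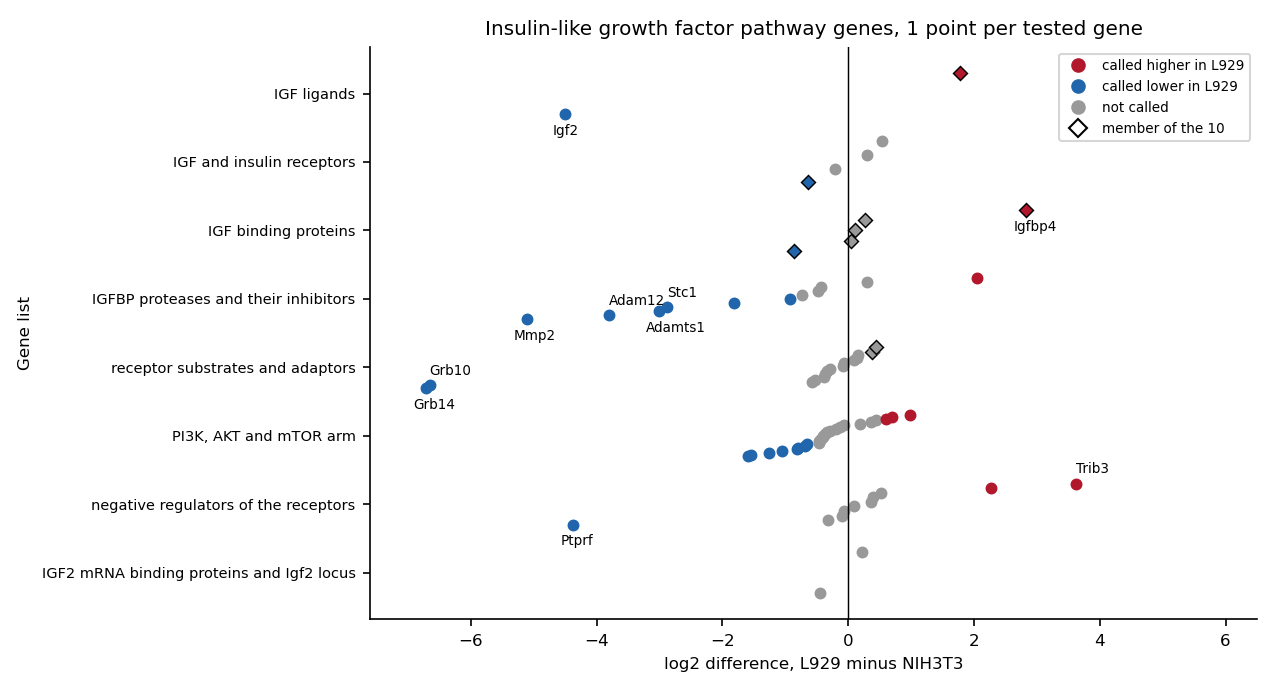
Log2 difference, L929 minus NIH3T3, of the 75 tested genes of the pathway list in 8 rows by role, coloured by call, with the 9 tested members as outlined diamonds and genes beyond 2.5 named. Igf2, Mmp2, Grb10, Grb14 and Ptprf lie below -4, and Igfbp4 and Trib3 are the named genes on the higher side.

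Of 16 tested receptor substrates and adaptors, 0 were called higher and 2 lower on the probe sets standing for them, beside 17.4% and 17.8% of all genes. Irs1 and Irs2 are among the 14 not called. In the higher direction 2 had an unadjusted p under 0.05 in limma, Irs1 and Dok1, the second a docking protein named after its values were seen. Sos1, the exchange factor that activates RAS, was not called on the probe set standing for it (difference -0.57), but 3 of its 4 tested probe sets were called higher, with differences up to 1.303. Grb2, the adaptor that recruits it, had 1 of 2 probe sets called lower (-0.67). Grb10, an imprinted adaptor that restrains insulin and IGF receptors, gave 13.5 and 24.0 in L929, against 2685 and 2622 in NIH3T3, 101-fold lower (limma adjusted p = 6.22e-08). Its 3 probe sets were all called lower, with differences from -6.65 to -2.71. Grb14, a related adaptor that inhibits the insulin receptor, gave 18.3 and 6.16 in L929, against 2001 and 2080.2 in NIH3T3, 105-fold lower (limma adjusted p = 3.22e-07). Of both genes only 1 of 2 L929 arrays lay above the filter level. With an offset of 32 the folds were 53.2 for Grb10 and 47.3 for Grb14, with an offset of 1 that of Grb14 was 174, and the mean over the probe sets of Grb10 was 20.6-fold lower.

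In the PI3K, AKT and mTOR arm 3 of 25 tested genes were higher and 8 lower, beside 17.4% and 17.8% of all genes. The higher ones were Foxo3, a transcription factor restrained by AKT, at 1.97-fold, Rheb, the GTPase that activates mTORC1, at 1.61-fold, and Akt2, an AKT kinase, at 1.52-fold (limma adjusted p = 0.00195, 0.00361 and 0.00207). All 3 of these calls were lost without scaling, that of Rheb also without either L929 replicate (limma adjusted p = 0.0691 and 0.0509), and that of Akt2 also without L929 replicate 2, where its difference of 0.55 lay under the fold threshold, and with an offset of 32 (0.57). Only 1 of the 3 tested Foxo3 probe sets was called higher, with differences from 0.31 to 0.98, while all 3 of Akt2 were. Among the lower ones, Inppl1, the lipid phosphatase SHIP2, was 3.03-fold lower (limma adjusted p = 7.41e-05) and Pik3r3, a regulatory PI3K subunit, 2.39-fold lower (limma adjusted p = 0.00122). Foxo4, a relative of Foxo3, was 2.93-fold lower, also with an L929 array under the filter level (limma adjusted p = 0.0127), but its other probe set was called the opposite way, with a difference of 1.13. The Foxo4 call was lost without NIH3T3 replicate 1 (limma adjusted p = 0.0589) or NIH3T3 replicate 2 (0.0692), and its fold was 1.91 without L929 replicate 1 and 4.49 without L929 replicate 2. With the mean of its probe sets the Foxo4 difference was -0.21 and not called (limma adjusted p = 0.577), and with an offset of 32 its fold was 1.94.

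Of 10 tested negative regulators of the receptors 2 were higher and 1 lower, beside 17.4% and 17.8% of all genes. Trib3, a pseudokinase reported to bind AKT, gave 12.3-fold more signal in L929 (limma adjusted p = 1.43e-06), and Socs2, a cytokine-induced inhibitor of growth hormone signalling, 4.84-fold more (limma adjusted p = 5.9e-06). Ptprf, the receptor phosphatase LAR, lay below the filter level on both L929 arrays. It was 20.7-fold lower in the fit (limma adjusted p = 2.19e-06), or 16-fold with L929 set to that level. Its fitted fold was 8.27 with an offset of 32 and 41.6 with an offset of 1. Of the 4 tested Socs2 probe sets 2 were called higher, with differences from 0.22 to 2.42, while all 3 of Ptprf were called lower. With the mean over probe sets, Socs2 was 2.69-fold higher and Ptprf 6.80-fold lower. Of the IGF2 mRNA binding proteins, Igf2bp1 and Igf2bp3 were tested, named after their values were seen, and neither was called by limma on the probe set standing for it. Igf2bp1 had an adjusted p of 0.0156 with a fold under the threshold there, but 2 of its 4 probe sets were called lower, with differences down to -3.96. Igf2bp3 had an adjusted p of 0.146, and none of its 6 probe sets was called.

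Some markers of other cell types differed between the lines, and others were not called. Among all genes 17.4% were called higher and 17.8% lower. Of 3 tested adipocyte markers all were higher in L929, with Adipoq below the filter level on all arrays. The signal summed over all probe sets of the 4 measured ones was 7359 and 6617 in L929, against 178 and 214 in NIH3T3. Genes with several probe sets count more than once in such sums. Of 4 tested skeletal muscle markers 2 were higher, and Myog was below the filter level on all arrays. The sums over all their probe sets were 514 and 538 in L929, against 220.2 and 222 in NIH3T3. Des, called higher, had 1 of 2 tested probe sets called, with 9.08 and 50.2 in NIH3T3, and the other differed by 0.09. Of 3 tested macrophage and leukocyte markers only Cd68 was called, lower in L929, on the probe set standing for the gene. The 2 tested epithelial markers and the 1 tested endothelial marker were not called on theirs, with unadjusted p values in limma of at least 0.357. Of other probe sets, 1 of 3 for Csf1r (-0.80) and 1 of 3 for Krt8 (-1.33) were called lower. The part of these markers in the differences above was not tested.

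**Figure D4:**
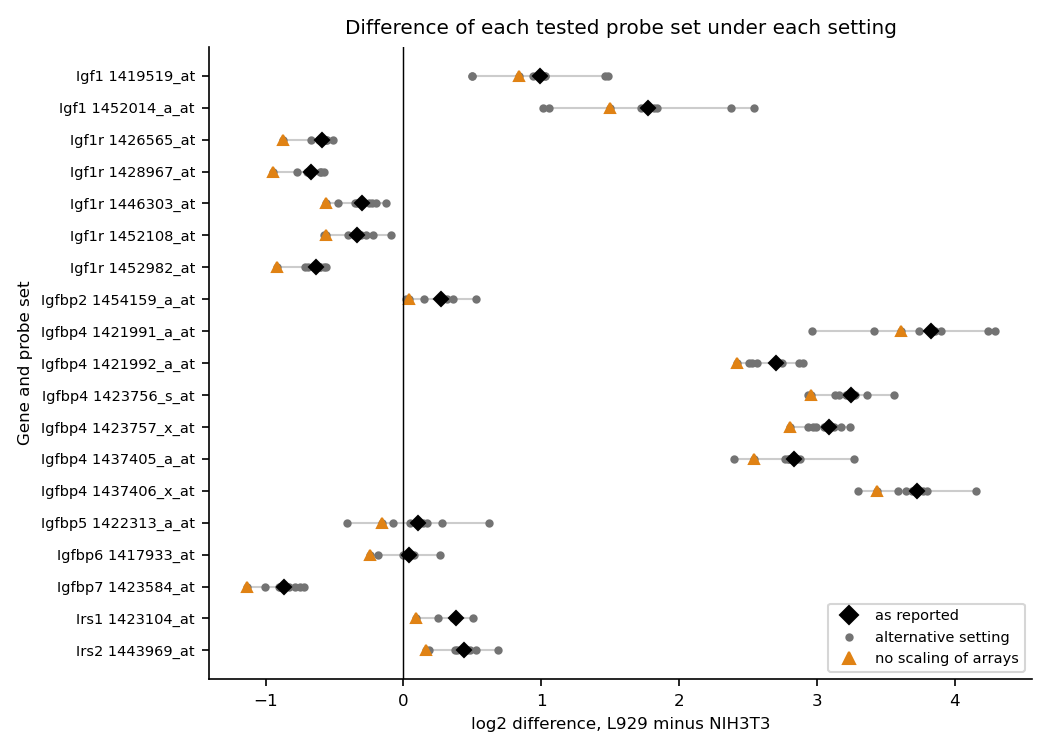
Log2 difference, L929 minus NIH3T3, of the 19 tested member probe sets as reported (diamonds), under each alternative setting (circles) and without scaling (triangles). The Igfbp4 values stay between 2.40 and 4.29, Igf1r and Igfbp7 stay below 0, and Igfbp5 and Igfbp6 fall on both sides of 0.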

How the data were processed

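Total RNA of 2 L929 and 2 NIH3T3 samples was hybridised to Affymetrix mouse arrays, and samples were grouped by their titles. The authors deposited 1 intensity per probe set and array, a MAS5 signal per the submitters' processing notes. No source used here gives its version, scaling target or detection calls. Genes were named from the platform annotation: 34945 probe sets had a unique symbol, 932 several and 9160 none, and 34741 identifiers matched a gene table of GRCm38.p6, with 0 symbols changed. Here arrays were brought to the same 2% trimmed mean, an offset of 8.16 (the 25th percentile) was added before log2, and limma 3.58.1 (R 4.3.3; lmFit, then eBayes with a mean-variance trend) was fitted to 27438 probe sets, with Benjamini-Hochberg adjustment. Gene-level p-values take the probe set with the highest mean and are adjusted over 12676 genes. Where a line lay under 17.6 on both its arrays, a fold with that line set to 17.6 is given beside the fitted fold. That level is a percentile and not a detection limit, so neither fold is exact.

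Members and gene lists were chosen with earlier results of these data known, so no list test was made. Named genes are all members with every probe set, up to 3 called genes a direction of each sublist, and all ligands, receptors and binding proteins of the lists. The procedure was tested on simulated data. Alternatives were no scaling, quantile normalization, offsets of 1 and 32, 3 other filters, no trend, a replicate block, each array left out, and gene means over probe sets. The number of arrays limits the precision. Protein sequences and array probe sequences were not used here.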

Additional observations from a re-analysis of the deposited data

How the results depend on the processing

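Over the 19 tested member probe sets and up to 13 alternatives each, 222 values kept their direction and side of the threshold, 14 lost a call, 2 gained one and 5 changed sign. For 21 other named genes, with up to 14 alternatives, the numbers were 277, 10, 2 and 1. Without scaling, 1484 probe sets in all were called higher in L929, against 4091 with it, and 3722 were called lower, against 4582. Member probe sets called lower were then 0 by limma, against 4, with 3 at an unadjusted p under 0.05. Pathway genes called higher were then 5, against 8. Leaving out each array in turn gave 2 to 3 member probe sets called lower, with 2 without NIH3T3 replicate 2. The sign changes were all in values that were not called: Igfbp6 at -0.24 without scaling and -0.18 without NIH3T3 replicate 2 (up to 0.27 with other arrays left out), Igfbp5 at -0.16 without scaling, -0.07 without L929 replicate 2 and -0.41 without NIH3T3 replicate 1 (up to 0.62), and Insrr at -0.0465 without NIH3T3 replicate 2 (up to 0.63). The cause was not tested. With the replicate number as a block, 7 member probe sets were called higher and 4 lower, as without it, and 4153 and 4681 probe sets in all. Same-numbered arrays hardly deviated together (r = 0.01 across probe sets). That value cannot show whether same-numbered samples were handled together, which no label states. An array left out leaves a line with 1 sample, assumed to vary like the other line. Signals under the filter level carry no order.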
